A study of Homo sapiens with 24 samples.

Results

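The TET dioxygenases and the DNA methyltransferases are the enzymes that remove and place methyl groups on cytosine in DNA. The account here covers 8 genes, chosen by symbol from the 22446 gene symbols of the table: TET1, TET2, TET3, DNMT1, DNMT3A, DNMT3B, the DNMT1 cofactor UHRF1, and ALKBH5, a related dioxygenase that acts on RNA. The cells were A2780, an established human epithelial ovarian cancer line. They were kept at 37 °C with 5% CO2, 10 to 15% serum and 0.1% gentamicin, and RNA depleted of ribosomal RNA was sequenced. The 6 groups were normoxia and hypoxia, each at 6 hr, 48 hr and 6 days. Hypoxia was 1% oxygen in a controlled chamber, and the labels give no oxygen level for normoxia. Each group had 2 libraries, 12 in all, numbered as the labels do: normoxia 1 and 2 and hypoxia 3 and 4 at 6 hr, normoxia 5 and 6 and hypoxia 7 and 8 at 48 hr, and normoxia 9 and 10 and hypoxia 11 and 12 at 6 days. Nothing in the labels tells whether both libraries of a group are from different cultures; the p-values rest on the spread between libraries, and that spread may be technical. All groups are 1 cell line.

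DNMT1 copies methylation onto the new strand behind the replication fork, and UHRF1 recognises half-methylated DNA and brings DNMT1 to it. DNMT3A and DNMT3B set methylation without a template. The TET enzymes oxidise methylcytosine to hydroxymethylcytosine and further, which leads to its loss either through dilution at replication or through base excision repair. TET proteins and ALKBH5 use molecular oxygen, iron and 2-oxoglutarate, so oxygen is a substrate of these enzymes. ALKBH5 removes the m6A mark from messenger RNA. Methylation itself, protein and enzyme activity were not measured in the tables used here, which hold RNA levels.

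Levels are in RPKM (reads scaled to transcript length and to library size), so they can be set side by side between genes. Fold changes and their errors are on the log2(RPKM + 0.5) scale, which understates the change of low genes. The test was limma across the 11933 genes with at least 1 RPKM in at least 2 libraries, with a threshold of 0.05 on the Benjamini-Hochberg adjusted p. All 8 genes entered the test. In bulk RNA, fewer cells of a kind that expresses a gene and less RNA per cell cannot be told apart.

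The promoters of the 5 genes whose RNA moved with oxygen are shown for reference. The first 3 belong to genes that rose in hypoxia and the last 2 to genes that fell. Each is the 250 bases upstream of the most 5′ annotated start, from RefSeq on GRCh38.p14, written 5′ to 3′ on the strand of the gene. Capitals mark the core letters of the hypoxia response element, ACGTG or GCGTG on either strand, and, in the UHRF1 promoter, also 1 match to E2F letters near the start. The positions are TET1 chr10:68560087-68560336 (plus strand), TET2 chr4:105145625-105145874 (plus), ALKBH5 chr17:18183578-18183827 (plus), DNMT1 chr19:10194954-10195203 (minus) and UHRF1 chr19:4909251-4909500 (plus).
TET1: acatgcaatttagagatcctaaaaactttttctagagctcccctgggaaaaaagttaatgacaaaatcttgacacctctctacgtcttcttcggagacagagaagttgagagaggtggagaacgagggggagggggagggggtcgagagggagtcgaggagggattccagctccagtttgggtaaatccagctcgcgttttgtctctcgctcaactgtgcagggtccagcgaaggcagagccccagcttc
TET2: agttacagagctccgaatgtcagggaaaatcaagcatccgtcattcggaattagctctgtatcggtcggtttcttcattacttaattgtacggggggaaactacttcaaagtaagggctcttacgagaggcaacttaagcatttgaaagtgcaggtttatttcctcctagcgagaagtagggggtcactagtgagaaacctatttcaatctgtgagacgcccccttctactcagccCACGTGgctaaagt
ALKBH5: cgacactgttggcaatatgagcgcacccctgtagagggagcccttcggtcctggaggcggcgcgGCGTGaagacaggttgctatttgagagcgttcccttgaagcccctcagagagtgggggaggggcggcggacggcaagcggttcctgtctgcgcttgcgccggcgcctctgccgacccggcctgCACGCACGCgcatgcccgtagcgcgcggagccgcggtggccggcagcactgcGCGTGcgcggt
DNMT1: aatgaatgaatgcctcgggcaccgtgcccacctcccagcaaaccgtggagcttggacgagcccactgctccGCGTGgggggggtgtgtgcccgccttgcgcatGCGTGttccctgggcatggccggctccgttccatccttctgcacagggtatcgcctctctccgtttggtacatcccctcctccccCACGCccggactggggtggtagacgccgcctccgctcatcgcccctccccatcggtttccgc
UHRF1: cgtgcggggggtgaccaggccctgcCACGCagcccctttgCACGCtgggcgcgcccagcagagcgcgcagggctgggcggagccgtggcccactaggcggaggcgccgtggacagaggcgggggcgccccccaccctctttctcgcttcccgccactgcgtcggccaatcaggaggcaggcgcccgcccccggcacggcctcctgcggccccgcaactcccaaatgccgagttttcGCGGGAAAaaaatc

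The TET1 window held 0 matches to the hypoxia core, TET2 held 2 that overlap within a single CACGTG 14 bases upstream of the start, and ALKBH5 held 4. DNMT1 held 3 and UHRF1 held 2, so genes that fell carried these letters too. The genes whose RNA did not pass the test between oxygen levels were as mixed, with 5 matches upstream of TET3 and 0 upstream of DNMT3A and of DNMT3B in these most 5′ windows. All TET3 matches but the farthest from the start overlap in pairs, each pair within a single CACGTG as for TET2. Over all 35116 promoter windows of this length, 43.2% held at least 1 match, so the letters are common. TET1 has 3 annotated windows, of which 1 held a match, and DNMT3A has 6, of which 2 did. E2F letters (TTTCGCGC, TTTGGCGC, TTTCCCGC or TTTGCCGC, either strand) were found in the UHRF1 window and in none of the other 7, and 2.79% of all windows held them. CpG pairs numbered 9 upstream of TET1, 10 of TET2, 32 of ALKBH5, 21 of DNMT1 and 28 of UHRF1, beside a median of 11 over all windows. A match describes letters in a window and was not tested as a site of binding.

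The libraries were checked before the results. Reads per library, inferred from steps of the low precursor values, ranged from 25.2 to 51.8 M (mega), and replicates had r between 0.989 and 0.995 over genes. Of 10 index genes of the response to low oxygen, 9, 10 and 10 passed as higher at 6 hr, 48 hr and 6 days. Among all tested genes, 3.39%, 9.24% and 23.9% were higher at these times, and 0.201%, 2.89% and 18.3% were lower. Of 11 markers listed for the label of epithelial ovarian cancer, EPCAM, KRT18, KRT8 and VIM reached 1 RPKM in at least 1 library. KRT8 was at most 1.96 RPKM, and VIM, which is a mesenchymal rather than an epithelial marker, was between 712 and 989 RPKM. The other 7 (PAX8, KRT19, CDH1, WT1, MUC16, MSLN and SOX17) were under 1 RPKM in all libraries. All 9 leukocyte and all 6 endothelial markers were under 1 RPKM in every library. The summed level of 11 fibroblast markers was between 137 and 150 RPKM in normoxia and 144 and 173 in hypoxia at 6 hr, 148 and 155 against 233 and 233 at 48 hr, and 67.8 and 72.1 against 95.8 and 99.3 at 6 days. TAGLN was the largest part of that sum, with a mean of 106 RPKM in normoxia and 168 in hypoxia at 48 hr. Of the 6 of these markers that were tested with limma, 0 were called at 6 hr (2 at an unadjusted p under 0.05). In hypoxia 4 were called higher and 0 lower at 48 hr, where 9.24% of all tested genes were higher. The same counts held at 6 days, where 23.9% were higher. DCN had a mean of 17.8 RPKM in normoxia and 22.3 in hypoxia at 6 days and LUM 8.20 and 15.4, while THY1 had 5.60 and 4.90. PDGFRA, PDGFRB and FAP were under 1 RPKM in all libraries. The part of these 11 markers in the results was not tested. Library 4, hypoxia at 6 hr, stood apart with COL1A2 at 3.06, LYZ at 0.982 and, chosen after its value was seen, HBA2 at 9.05 RPKM, where the highest of the other 11 libraries had 0.125, 0.119 and 1.83. Without library 4 the log2 fold changes at 6 hr were 1.27 ± 0.13 for TET1 (adjusted p = 0.000585), 0.49 ± 0.11 for TET2 (0.0468) and 0.78 ± 0.14 for ALKBH5 (0.0144), so the 3 calls at 6 hr stood. Without it UHRF1 across times (0.0516) and the change of TET2 from 6 hr to 6 days in hypoxia (0.0838) did not pass. The split of calls depended on the scaling: 94.4% of calls at 6 hr were higher as deposited and 76.1% under quantile normalization, and the shares were 76.2% and 57.9% at 48 hr, 56.6% and 45.3% at 6 days, and 68.3% and 43.7% across times.

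TET1, which has a CpG-binding CXXC domain as TET3 does, was higher in hypoxia in all 3 pairs of groups. Its level was 1.98 and 1.70 RPKM in normoxia and 5.11 and 5.03 in hypoxia at 6 hr. At 48 hr it was 1.98 and 2.19 in normoxia and 4.45 and 4.202 in hypoxia. At 6 days it was 2.31 and 2.66 in normoxia and 5.23 and 5.18 in hypoxia. Every hypoxia library was thus above every normoxia library, whatever the time. The log2 fold change was 1.26 ± 0.10 (SE) at 6 hr, adjusted p = 2.45e-05, and 0.90 ± 0.10 at 48 hr, adjusted p = 0.000123. At 6 days it was 0.94 ± 0.10, a 1.91-fold rise, adjusted p = 3.57e-05. Among the 11933 genes tested, TET1 had the 56th highest log2 fold change at 6 hr, the 307th at 48 hr and the 692nd at 6 days. The smaller effect at 48 hr than at 6 hr, by 0.35 ± 0.14 on the log2 scale, did not pass the test of the difference (adjusted p = 0.387).

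TET2, which lacks that domain, showed a smaller change. Its level at 6 hr was 5.57 and 5.08 RPKM in normoxia against 7.68 and 7.89 in hypoxia. At 48 hr it was 5.24 and 5.75 against 7.33 and 6.705, and at 6 days 5.78 and 6.11 against 9.21 and 9.19. Hypoxia and normoxia did not overlap, and the lowest hypoxia library, at 48 hr, was still above the highest normoxia library, at 6 days. The rise was 1.42-fold at 6 hr (log2 0.51 ± 0.09, adjusted p = 0.00754), 1.25-fold at 48 hr (0.33 ± 0.09, adjusted p = 0.0336) and 1.51-fold at 6 days (0.59 ± 0.09, adjusted p = 0.000384). The call at 48 hr was lost when any 1 of 8 libraries was left out, with adjusted p between 0.0509 and 0.248. The call at 6 hr was lost without library 3 (adjusted p = 0.052) and when only the libraries compared were fitted (adjusted p = 0.123). TET1 and TET2 levels ran together over the 12 libraries, with a Pearson r of 0.951, a description over libraries that come 2 to a group.

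TET3, the third member of the family, did not pass the test at any time. Its level stayed between 2.10 and 2.83 RPKM over all 12 libraries. The log2 difference between hypoxia and normoxia was 0.05 at 6 hr, 0.07 at 48 hr and 0.11 at 6 days, with a 95% interval from −0.09 to 0.31 at 6 days. The highest levels were at 48 hr, with 2.65 and 2.57 RPKM in normoxia and 2.69 and 2.83 in hypoxia.

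**Figure D1:**
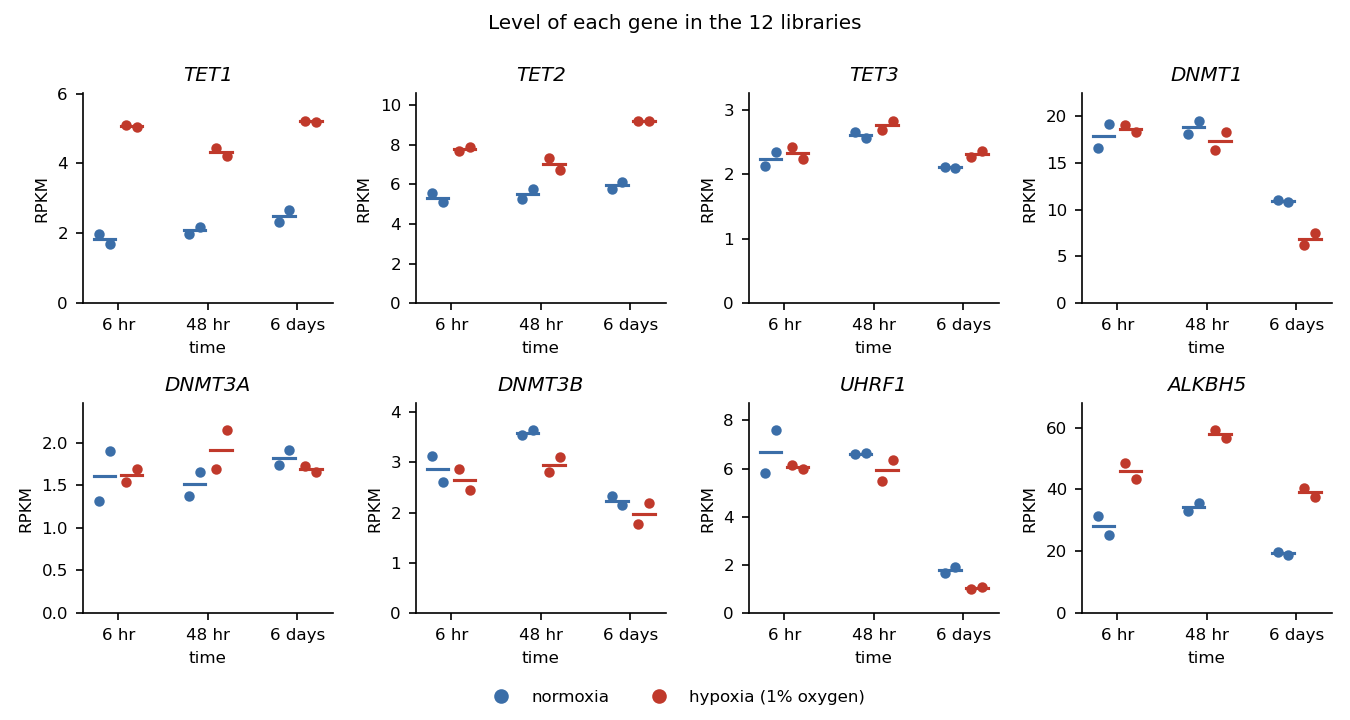
RPKM (vertical axes, from 0) of the 8 genes in each of the 12 libraries by time (horizontal axis), 1 panel per gene. Points are libraries, bars are means of 2 libraries, blue is normoxia and red is hypoxia. TET1, TET2 and ALKBH5 are higher in hypoxia at all 3 times, and DNMT1 and UHRF1 are low at 6 days.

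Summed over the family, TET RNA was 9.40 ± 0.39 RPKM (SD, n = 2) in normoxia and 15.2 ± 0.04 in hypoxia at 6 hr. It was 10.2 ± 0.45 and 14.1 ± 0.52 at 48 hr, and 10.5 ± 0.47 and 16.7 ± 0.02 at 6 days. TET2 was the largest part of the sum in every library, from 48.8 to 57.5%. The TET1 share was 19.5% ± 1.31 (SD, n = 2) in normoxia and 33.4% ± 0.27 in hypoxia at 6 hr, 20.4% ± 0.54 and 30.7% ± 0.12 at 48 hr, and 23.6% ± 1.29 and 31.1% ± 0.23 at 6 days. TET3 gave 23.9% of the sum in normoxia at 6 hr and 13.9% in hypoxia at 6 days. In hypoxia the family thus held more RNA in all, with a larger share from TET1 and a smaller share from TET3.

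ALKBH5, the m6A demethylase, had the highest level of the 8 genes. It was at 31.4 and 25.2 RPKM in normoxia and 48.6 and 43.3 in hypoxia at 6 hr, 33.0 and 35.6 against 59.1 and 56.5 at 48 hr, and 19.9 and 18.9 against 40.6 and 37.5 at 6 days. Every hypoxia library was above every normoxia library. The rise was 1.62-fold at 6 hr (log2 0.69 ± 0.11, adjusted p = 0.00519), 1.68-fold at 48 hr (0.75 ± 0.11, adjusted p = 0.00131) and 1.99-fold at 6 days (0.99 ± 0.11, adjusted p = 6.2e-05). The level in normoxia was lower at 6 days than at 6 hr, by 1.44-fold (adjusted p = 0.00212). At 6 hr the call was lost without library 3 (adjusted p = 0.0687) and when only the libraries compared were fitted (adjusted p = 0.0535).

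Counted over the 8 genes, 3 rose in hypoxia at 6 hr (TET1, TET2 and ALKBH5) and 0 fell, where 3.39% of all tested genes rose and 0.201% fell. The same 3 rose and 0 fell at 48 hr, where 9.24% of tested genes rose and 2.89% fell. At 6 days these 3 rose and DNMT1 and UHRF1 fell, where 23.9% of tested genes rose and 18.3% fell, so that 5 of 8 is read against a background of 42.2% called in either direction. In the model of oxygen with time as an additive term, 3 genes were higher and UHRF1 was lower, against 15.3% and 7.13% of tested genes. Across times TET1 was 2.04-fold higher (adjusted p = 9.91e-07), ALKBH5 1.75-fold (1.18e-05) and TET2 1.39-fold (0.000151). UHRF1 was lower by 0.28 ± 0.09 on the log2 scale (adjusted p = 0.0415), a call that leaving out any 1 of 9 libraries ended. These comparisons share libraries and are not independent of each other.

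DNMT1, the maintenance methyltransferase, was the highest of the methyltransferases and fell late. It was at 16.6 and 19.1 RPKM in normoxia and 19.0 and 18.3 in hypoxia at 6 hr. At 48 hr it was 18.1 and 19.5 in normoxia and 16.4 and 18.3 in hypoxia. The groups overlapped at both times, and log2 differences of 0.06 ± 0.11 (adjusted p = 0.834) and −0.12 ± 0.11 (adjusted p = 0.534) did not pass the test. At 6 days the level was 10.99 and 10.8 RPKM in normoxia and 6.21 and 7.52 in hypoxia, without overlap. DNMT1 was 1.56-fold lower in hypoxia at 6 days (log2 −0.64 ± 0.11, adjusted p = 0.000883), the 622nd lowest log2 fold change of 11933. Normoxia itself was 1.61-fold lower at 6 days than at 6 hr (adjusted p = 0.000283), and hypoxia was 2.61-fold lower (adjusted p = 1.39e-06). The hypoxia effect at 6 days was lower than at 48 hr by 0.52 ± 0.15 on the log2 scale, adjusted p = 0.0523 in the fit of all libraries. That difference passed the threshold in the fit limited to the libraries compared (0.0323), under quantile normalization (0.0343), and without library 1 (0.0292), 2 (0.0292) or 12 (0.0497).

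UHRF1 had the highest ratio of its highest to its lowest library among the 8 genes, 7.64. Its level was 5.82 and 7.58 RPKM in normoxia and 6.15 and 5.97 in hypoxia at 6 hr, and 6.601 and 6.64 against 5.50 and 6.34 at 48 hr. At 6 days it was 1.65 and 1.93 in normoxia and 0.993 and 1.09 in hypoxia. The libraries at 6 days were below all others in both oxygen settings, and hypoxia was below normoxia. In hypoxia at 6 days UHRF1 was 1.48-fold lower than in normoxia (log2 −0.57 ± 0.12, adjusted p = 0.00384). From 6 hr to 6 days it fell 3.13-fold in normoxia (adjusted p = 1.69e-06) and 4.25-fold in hypoxia (adjusted p = 2.28e-07), the 77th and 40th lowest of 11933 genes. Neither difference between oxygen levels at 6 hr (log2 −0.12) or 48 hr (−0.15) passed the test. The DNMT1 and UHRF1 levels had a Pearson r of 0.976 over the 12 libraries, a description with no test. The DNMT1 level was 2.69 ± 0.24 (SD, n = 2) times that of UHRF1 in normoxia at 6 hr and 6.14 ± 0.76 times at 6 days.

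**Figure D2:**
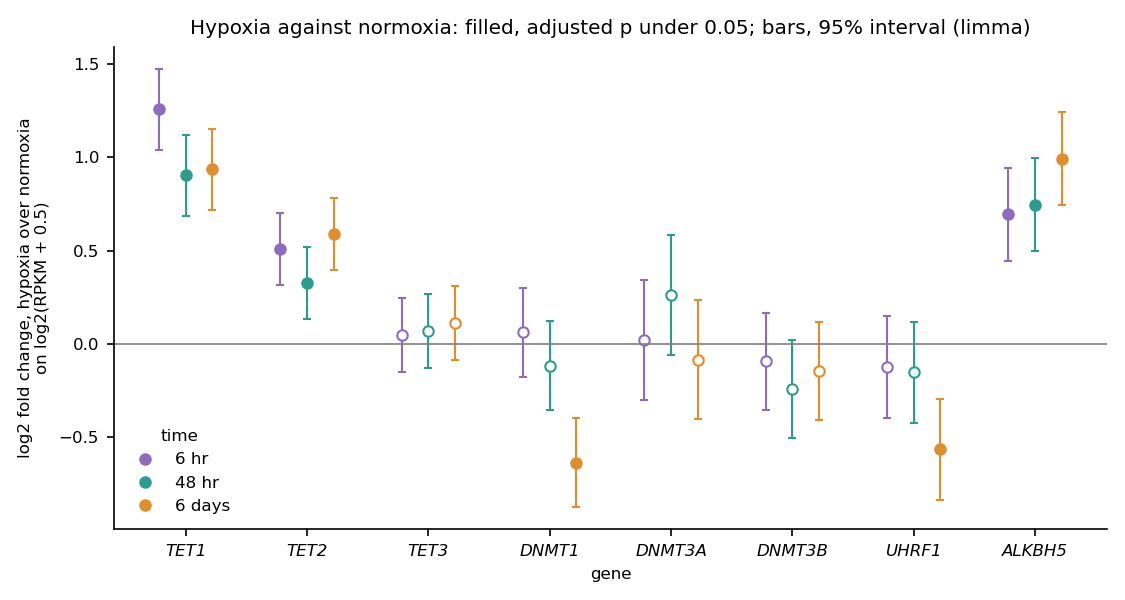
Log2 fold change of hypoxia over normoxia (vertical axis, on log2(RPKM + 0.5)) for the 8 genes (horizontal axis) at 6 hr, 48 hr and 6 days. Bars are 95% intervals from limma, filled points have an adjusted p under 0.05. TET1, TET2 and ALKBH5 lie above 0 at each time, and DNMT1 and UHRF1 lie below 0 at 6 days.

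DNMT3A and DNMT3B, which set new methylation, were low, and neither was called between oxygen levels at any time. The highest library was 1.63 times the lowest for DNMT3A and 2.05 times for DNMT3B. DNMT3A stayed between 1.31 and 2.14 RPKM over the 12 libraries and passed the test in 0 of the 9 comparisons. Its log2 difference was 0.02 at 6 hr, 0.26 at 48 hr and −0.08 at 6 days, each with an SE of 0.15. DNMT3B was at 3.12 and 2.61 RPKM in normoxia and 2.86 and 2.44 in hypoxia at 6 hr. It was 3.53 and 3.63 against 2.81 and 3.10 at 48 hr, and 2.33 and 2.14 against 1.77 and 2.19 at 6 days. The groups overlapped at 6 hr and 6 days and not at 48 hr, and none of the 3 differences passed (log2 −0.09, −0.24 and −0.15). Across times DNMT3B had a log2 difference of −0.16 ± 0.07 (adjusted p = 0.12). That value passed the threshold under quantile normalization (0.027) and trimmed-mean centring (0.0329). From 6 hr to 6 days in hypoxia it fell by 0.35 ± 0.12 on the log2 scale (adjusted p = 0.0236), a call lost without library 3 (0.161) or 11 (0.192). The 3 methyltransferase genes give several transcripts each, and gene-level RPKM does not separate them.

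In normoxia alone, 0 of the 8 genes passed limma's test between 48 hr and 6 hr, where 0.0922% of tested genes did, and 2 (DNMT3B and ALKBH5) had an unadjusted p under 0.05. Between 6 days and 6 hr in normoxia, 1 gene rose (TET1, 1.28-fold, adjusted p = 0.01) and 3 fell (DNMT1, UHRF1 and ALKBH5), where 30.9% of tested genes rose and 25.9% fell. The TET1 call was lost under quantile normalization (0.107), in the fit of the libraries compared (0.0731), and without library 2 (0.0566) or 10 (0.0917). Between 6 days and 6 hr in hypoxia, TET2 rose (1.17-fold, adjusted p = 0.0402) and DNMT1, DNMT3B and UHRF1 fell, where 35.1% of tested genes rose and 29.8% fell. The TET2 call was lost under 9 of the alternatives, and no rise of TET1 was called there (log2 0.03 ± 0.10). The 4 of 8 genes called in each of these comparisons are not above the background, which was 56.7% in normoxia and 64.9% in hypoxia.

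The hypoxia effect was compared between times in the same model. Between 48 hr and 6 hr, 0 of 8 genes passed limma's test, where 0.528% of tested genes did, and only TET1 had an unadjusted p under 0.05. Between 6 days and 48 hr, 0 of 8 passed, where 10.7% of tested genes did, and DNMT1 and UHRF1 had an unadjusted p under 0.05. A later start of the DNMT1 and UHRF1 differences than of the TET1 difference is therefore not shown by these tests.

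**Figure D3:**
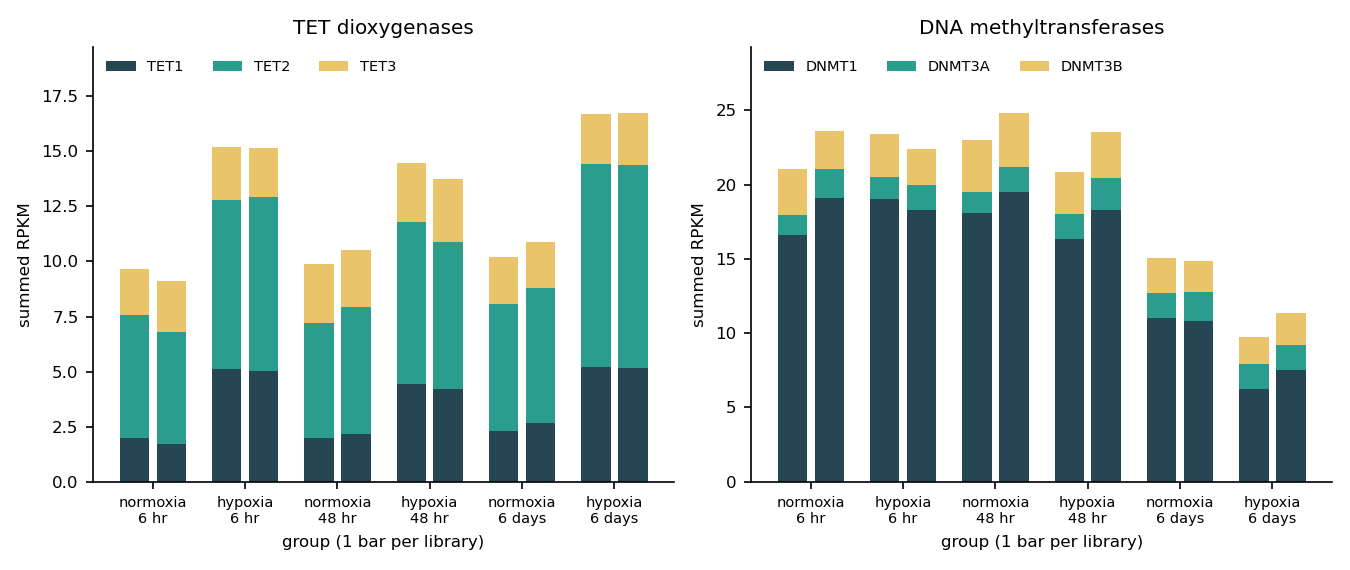
Summed RPKM (vertical axes, from 0) of the 3 TET genes and of the 3 DNA methyltransferase genes, 1 bar per library, grouped by oxygen and time (horizontal axes). TET sums are between 13.7 and 16.7 RPKM in hypoxia and between 9.12 and 10.9 in normoxia, and methyltransferase sums are lowest at 6 days in hypoxia.

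At 6 days in hypoxia the TET sum was at its highest and the methyltransferase sum at its lowest of the 6 groups. The summed RNA of DNMT1, DNMT3A and DNMT3B was 22.4 ± 1.81 RPKM (SD, n = 2) in normoxia and 22.9 ± 0.69 in hypoxia at 6 hr, and 23.9 ± 1.25 and 22.2 ± 1.89 at 48 hr. At 6 days it was 15.0 ± 0.12 and 10.5 ± 1.17. DNMT1 made up 79.9% of this sum in normoxia at 6 hr, 72.9% in normoxia at 6 days and 65.1% in hypoxia at 6 days. The ratio of summed TET to summed methyltransferase RNA was 0.423 ± 0.05 in normoxia and 0.663 ± 0.02 in hypoxia at 6 hr, and 0.426 ± 0.004 and 0.639 ± 0.08 at 48 hr. At 6 days it was 0.704 ± 0.04 in normoxia and 1.60 ± 0.18 in hypoxia, where the TET sum exceeded the methyltransferase sum in both libraries. These sums describe RNA and were given no test.

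DNMT1 and UHRF1 are known to be expressed most around S phase, so 20 genes of the replication clamp, its loader, the helicase and its licensing, with the transcription factor E2F1 among them, were set beside them, a list that overlaps none of the 8. In hypoxia against normoxia 0 of 20 passed limma's test at 6 hr (1 at an unadjusted p under 0.05), where 3.39% of tested genes rose and 0.201% fell. At 48 hr 0 rose and 1 fell (GINS1, 1.29-fold lower), where 9.24% of tested genes rose and 2.89% fell. At 6 days 0 rose and 18 fell, where 23.9% of tested genes rose and 18.3% fell. The median log2 fold change of the list was −0.07, −0.18 and −0.45 at these times, beside 0.04, 0.01 and 0.04 over all tested genes. The largest falls at 6 days were those of MCM7, a helicase subunit (1.91-fold, adjusted p = 0.000205), of CDC45 (1.90-fold, 0.000595) and of GINS2 (1.75-fold, 0.000415), both helicase cofactors. PCNA, the clamp to which DNMT1 binds, had a mean of 108 RPKM in normoxia at 6 hr, 45.98 in normoxia at 6 days and 33.3 in hypoxia at 6 days. In normoxia between 6 hr and 6 days, 18 of 20 also fell, where 25.9% of tested genes fell. The share of cells in S phase was not measured in these tables, and its part in the DNMT1 and UHRF1 results was not tested.

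Relative to normoxia at 6 hr, the 20 S phase genes had a median of −0.61 on the log2 scale in normoxia at 6 days and −1.17 in hypoxia at 6 days. DNMT1 lay near these medians, at −0.68 and −1.32. UHRF1, at −1.65 and −2.21, was below the lowest of the 20 in both groups (−1.34 and −1.79). DNMT3B was at −0.30 and −0.44, and DNMT3A was at 0.15 and 0.07.

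**Figure D4:**
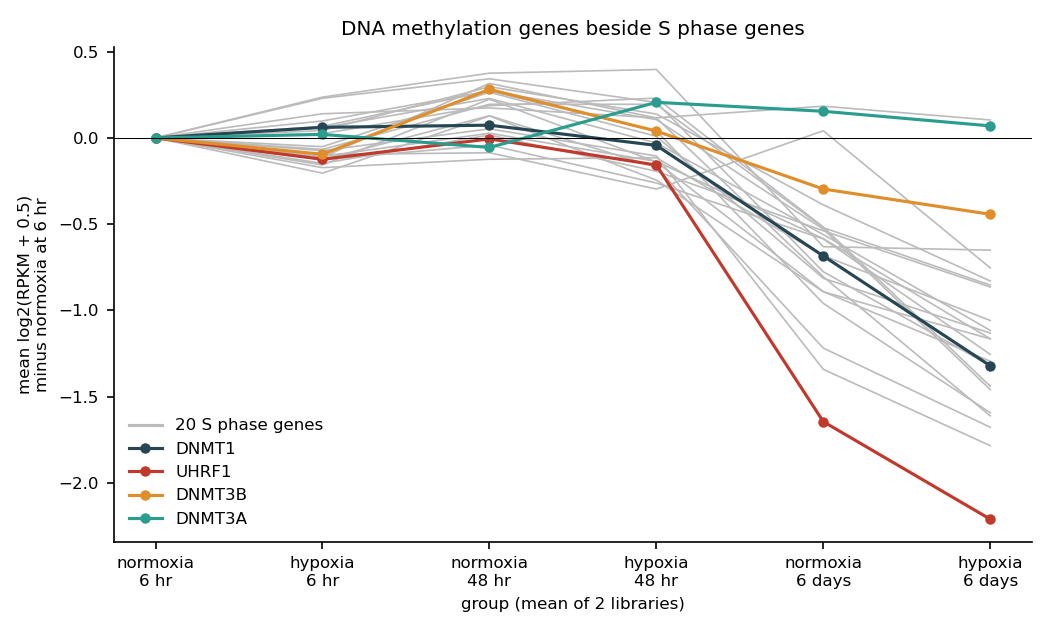
Mean log2(RPKM + 0.5) minus that of normoxia at 6 hr (vertical axis) in the 6 groups (horizontal axis, means of 2 libraries), for 20 S phase genes (grey lines) and 4 DNA methylation genes (coloured lines with points). Lines join the groups to guide the eye. UHRF1 lies below all grey lines at 6 days, DNMT1 runs among them and DNMT3A stays near 0.

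The wider machinery was read from 8 lists of 91 partner genes, of which 84 could be tested. At 6 hr 0 of 84 passed limma's test (15 at an unadjusted p under 0.05), where 3.39% of tested genes rose and 0.201% fell. At 48 hr 4 rose and 7 fell, where 9.24% of tested genes rose and 2.89% fell. At 6 days 13 rose and 32 fell, where 23.9% of tested genes rose and 18.3% fell, and these shares are the background for each list that follows. The median log2 fold change of the 84 was 0.01, −0.09 and −0.19, beside 0.04, 0.01 and 0.04 over all tested genes.

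Among 13 tested cofactors and relatives of the methyltransferases, 2 rose and 6 fell at 6 days. HELLS and CDCA7, which together form the remodeler that opens nucleosomal DNA to methylation, were lower at 48 hr (both 1.30-fold, adjusted p = 0.0129 and 0.0132). At 6 days CDCA7 was 2.09-fold lower (adjusted p = 3.77e-06) and HELLS 1.93-fold lower (1.1e-05), while the relative CDCA7L was 1.40-fold higher (0.00736). UHRF2, the paralog of UHRF1, was named after its value was seen: it was 1.40-fold higher at 6 days (adjusted p = 0.00183), in the direction opposite to UHRF1.

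Of 9 tested TET partners, 2 rose and 5 fell at 6 days, where 23.9% of tested genes rose and 18.3% fell. The share of these partners that rose was near that background. IDH2, which makes 2-oxoglutarate in mitochondria, was 1.39-fold higher (adjusted p = 0.0131), CXXC4, a CpG binder linked to TET2, was 1.46-fold lower (0.0124), and QSER1, a cofactor of TET1 at unmethylated regions, was 1.38-fold lower (0.0138). Of 14 tested genes for repair of oxidised or deaminated methylcytosine, 2 rose and 3 fell at 6 days. Neither count stands out from the shares of 23.9% and 18.3% over all tested genes, so the genes named next describe single genes and not the list. GADD45A, a stress-induced gene linked to demethylation, was 1.60-fold higher (0.00118), the glycosylase NEIL2 was 1.48-fold higher (0.012) and the ligase LIG3 was 1.49-fold lower (0.00298). TDG, the glycosylase that removes the further oxidised forms made by TET enzymes, was named after its value was seen and did not pass (log2 0.02 ± 0.12 at 6 days).

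Of 10 readers of DNA methylation state, 5 rose and 1 fell at 6 days, with a list median of 0.33, where 23.9% of tested genes rose and 18.3% fell. KDM2A and KDM2B, demethylases of histone H3 that bind unmethylated CpG, were 1.43-fold (adjusted p = 0.00539) and 1.56-fold higher (0.00115) at 48 hr and both 1.92-fold higher at 6 days (3.47e-05 and 2.83e-05). These 2 read the absence of methylation. ZBTB4, which binds methylated DNA, was 1.36-fold higher at 6 days (0.00221). KDM2A and KDM2B also belong to the class of dioxygenases that use 2-oxoglutarate.

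Of 11 tested genes for supply of the methyl donor, 1 rose and 8 fell at 6 days. MTR, which remethylates homocysteine, was higher at 48 hr (1.32-fold, adjusted p = 0.0113) and at 6 days (1.46-fold, 0.000566). MAT2A, which makes S-adenosylmethionine, was 1.27-fold lower at 48 hr (0.0273). SHMT1, which feeds carbon units to folate, was 1.58-fold lower (0.000329) and PEMT, a consumer of the donor, was 1.51-fold lower (0.0237) at 6 days.

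The partners of ALKBH5 were read the same way. Of 9 m6A writers, 0 rose and 2 fell at 6 days, a share of falls near the 18.3% of all tested genes: METTL3, the catalytic subunit, was 1.83-fold lower (adjusted p = 0.00011), and METTL16 was 1.25-fold lower (0.0102). Of 10 readers of m6A, 1 rose and 4 fell at 6 days, among them YTHDC2 (1.54-fold lower, 0.000333) and IGF2BP3 (1.44-fold lower, 0.00118), while YTHDC1, the nuclear reader, was 1.42-fold higher (0.00122). Of 8 other AlkB family genes, 0 rose and 3 fell at 6 days. FTO, the other m6A demethylase, was 1.22-fold lower at 48 hr (0.0496) and 1.83-fold lower at 6 days (2.43e-05). ALKBH8, a transfer RNA modifier, was 1.32-fold lower at 48 hr (0.0445) and 1.84-fold lower at 6 days (0.000157), and ALKBH2, a DNA repair enzyme, was 1.30-fold lower at 6 days (0.0211). ALKBH5 was called higher at each time, and none of the 8 others was called higher at any. Over all tested genes 3.39%, 9.24% and 23.9% rose at 6 hr, 48 hr and 6 days, so 0 of 8 does not stand out at 6 hr or 48 hr.

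**Figure D5:**
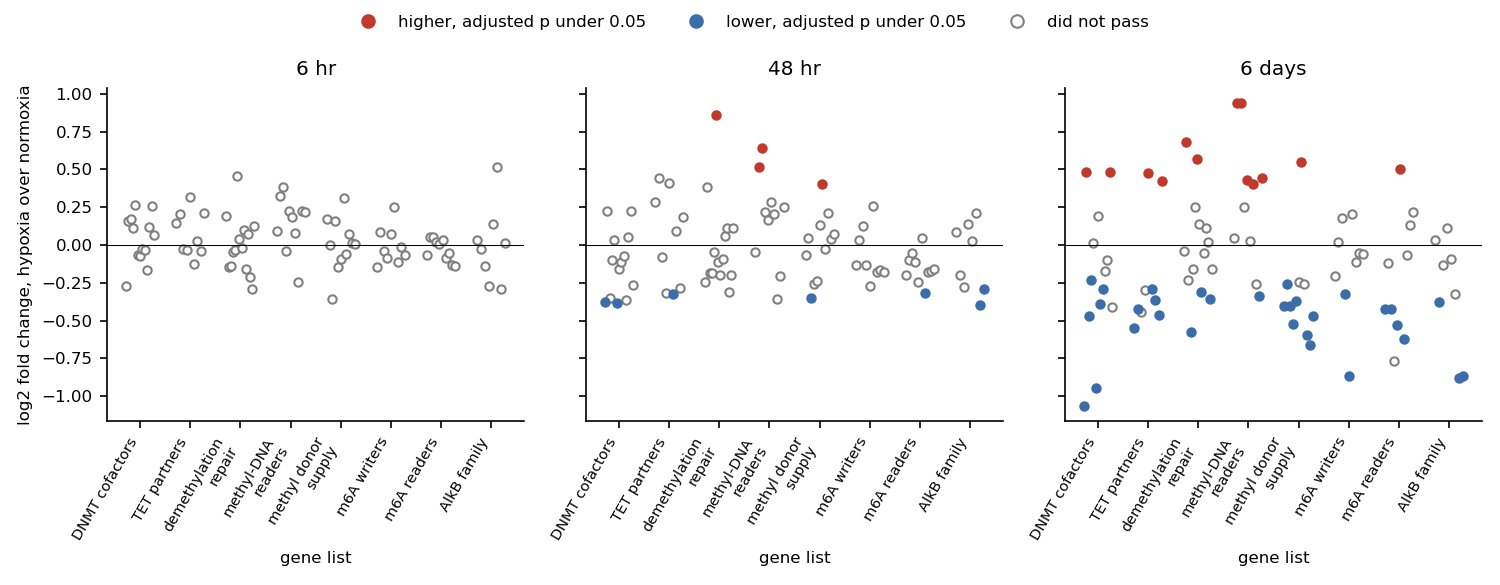
Log2 fold change of hypoxia over normoxia (vertical axis) of each tested gene in 8 partner lists (horizontal axis) at 6 hr, 48 hr and 6 days. Each point is 1 gene, red passed the test as higher, blue as lower and open points did not pass. No point passed at 6 hr, and 32 of 84 were lower at 6 days.

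Germ cell genes that promoter methylation keeps silent in body cells were read as a list of 20. Of these, 18 were under 1 RPKM in all 12 libraries, so only PRAME and TEX101 were tested. PRAME had a mean of 15.5 RPKM in normoxia and 11.3 in hypoxia at 6 days, 1.36-fold lower (adjusted p = 0.00845). TEX101 did not pass at any time. Levels of the other 18 were not tested.

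The miR-29 family is known to target DNMT3A, DNMT3B and the TET messenger RNAs, so its mature sequences are shown, from RefSeq on GRCh38.p14, with the shared seed (bases 2 to 8) in capitals.
hsa-miR-29a-3p: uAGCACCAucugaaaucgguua
hsa-miR-29b-3p: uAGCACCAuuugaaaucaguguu
hsa-miR-29c-3p: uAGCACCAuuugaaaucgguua
The hairpins were covered by 0 to 9 reads per library, as inferred from the steps of the low values. The mir-29b-1 hairpin (at chr7) had 1 and 1 reads in normoxia and 8 and 9 in hypoxia at 6 days, and mir-29b-2 (at chr1) had 0 and 0 against 9 and 3. The mir-29a hairpin had 2 and 0 reads in both settings at 6 days, and mir-29c had 2 and 0 in normoxia and 0 and 0 in hypoxia. In limma over 166 precursors mir-29b-2 passed at 6 days (adjusted p = 0.0263), where 10.8% of precursors were higher, and mir-29b-1 (adjusted p = 0.0504) and mir-29a (log2 −0.05, adjusted p = 0.978) did not. mir-29c was too low to be tested. Testing took at least 1 RPKM in at least 2 libraries, which mir-29b-2 reached only in libraries 11 and 12, hypoxia at 6 days. It thus entered the test only through the group where it was high, and its call is not independent of that filter. Against a floor of 3 reads put in each normoxia library, the hypoxia mean of mir-29b-2 at 6 days was 1.96-fold higher. Library 12 in hypoxia had 3 reads itself, so this is not a lower bound on the change. The mature 29b sequence is the same from both hairpins, and these total RNA libraries do not measure it. At 6 hr and 48 hr no tested miR-29 hairpin passed, and 0.0% and 0.602% of precursors were higher there. Other precursors listed for targeting these genes were mir-148b, mir-152 and mir-22, and none passed at any of the 3 times. The mir-148a, mir-26a and mir-101 hairpins of that list were too low to be tested.

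The genes most like each member were sought by Pearson correlation over the 12 libraries. The search took in 9655 genes whose mean was 2 RPKM or more. The libraries come 2 to a group, so r mostly reflects group means. For TET1 the closest were SAV1 (r = 0.984), ANKZF1, PPFIA4 and PFKFB4 (0.976), the last a glycolytic regulator. For TET2 they were C6orf204 (0.981), ZNF160, SIAH2 and again SAV1 (0.974). For ALKBH5 they were MED15 (0.984), PKM2, ADPRHL2 and APOC1 (0.981). DNMT1 was closest to STK36 (0.9901), GCN1L1 and THRAP3, and UHRF1 to KIAA0664 (0.997), NOL9, UCK2 and SRM (0.994). DNMT3B was closest to GALNT11 (0.972), SGK196, YTHDF1 and C14orf142, and TET3 to PYGB (0.955), AGRN, ARID3B and MAP1S. DNMT3A had no match above 0.815 (APOBEC3C, then SLC25A23, LENG8 and MADD).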

How the data were processed

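The authors deposited 2 tables of RPKM, for genes by symbol and for miRNA precursors, in which each library has its column. Per the labels' protocols, 3 ug of total RNA was depleted of ribosomal RNA, and SOLiD 5500xl sequencing gave forward reads of 75 bases. Per the submitters' processing notes, Partek 6.6 and build hg19 were used. For the aligner, transcript models, use of strand and RPKM denominator, a statement is not given in the sources used here. Thus reads of a gene and of an antisense partner cannot be told apart, and gene values give no counts. Of the low precursor values, 95.4 to 99.3% gave read numbers within 0.05 of a whole number, and floors cover counting error only.

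RPKM was used as deposited. Means of the 6 groups were fitted to log2(RPKM + 0.5) with limma 3.58.1 (R 4.3.3) (time and oxygen as additive terms across times), an intensity trend and two-sided p-values, Benjamini-Hochberg adjusted over the 11933 tested genes or 166 tested precursors, with 6 residual degrees of freedom (8 across times). Members, lists and tests were chosen with earlier results of these data known. Named genes were the members, up to 3 called genes of each list per time with the largest change, and the 4 genes most like each member; 2 genes under this rule are not reported here. Other pseudocounts, filters, scalings, smaller fits and each library left out were tried. On simulated data for the 6 days comparison (11340 genes), log2 changes of 0.5, 1 and 2 were put into 67, 67 and 66 genes. They were recovered in 35.8, 92.5 and 93.9%, with 4.52% of 155 calls false. VIRMA was matched by an older name. Tables and figures were made with Python 3.11.15 and matplotlib 3.10.9.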

Additional observations from a re-analysis of the deposited data

How the results depend on the processing

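Of 23 called results of the 8 genes, 16 kept their direction and call under every alternative run for them (19, or 18 for UHRF1, which the stricter filter removed, and 1 fewer across times, where fitting only the libraries compared does not apply), 7 lost the call under at least 1, and 0 reversed; of 49 uncalled results, 8 were called under at least 1. Fitting only the libraries compared lowered the calls at 6 hr from 428 genes to 278 and from 3 members to 1. For the hypoxia effect at 48 hr minus 6 hr, 63 genes became 31 with no filter, 37 with at least 1 RPKM in all 12 libraries, 97 with trimmed-mean centring and 36 with only the libraries compared. For 6 days minus 48 hr, 1276 genes became 2479 under quantile normalization and 2384 with only the libraries compared, and 0 members became 3 (DNMT1, UHRF1 and TET2) and 1 (DNMT1). For normoxia at 48 hr against 6 hr, 11 genes became 31 with the stricter filter and 18 with trimmed-mean centring. The cause of these shifts was not tested. Leaving out 1 library gave 181 (without library 3) to 836 (without library 1) genes and 1 to 3 members at 6 hr, 619 (without library 7) to 2066 (without library 1) genes at 48 hr, 11 (without library 7) to 110 (without library 1) genes for 48 hr minus 6 hr, 365 (without library 8) to 2154 (without library 2) genes and 0 to 1 members for 6 days minus 48 hr, 6 (without library 2) to 1310 (without library 1) genes and 0 to 1 members (ALKBH5, without library 1, adjusted p = 0.0347) for normoxia at 48 hr against 6 hr, and 2 (without library 3) to 5 (without library 1) members for hypoxia at 6 days against 6 hr. TET3 (adjusted p = 0.0249 under quantile normalization) and DNMT3B (6 alternatives) gained a call for normoxia at 6 days against 6 hr, and ALKBH5 gained one as lower for hypoxia at 6 days against 6 hr (3 alternatives). Where a group kept 1 library, it was assumed to vary like the others. In the simulation 35.8% of log2 changes of 0.5 were recovered at 6 days, with 155 genes called where the data gave 5039. The adjusted threshold was thus stricter in the simulation, and that share does not measure what was missed here. With 2 libraries a group, small changes can still be missed. No paired analysis was possible because the groups compared share no replicate numbers.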
